A study of Rattus norvegicus with 62 samples.

Results

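The genes of the cytosolic ribosomal proteins were followed through 3 brain regions and 3 treatments of male rats. They were taken as the probe sets whose single gene symbol begins with Rpl or Rps and a digit, or is Rplp0, Rplp1, Rplp2 or Rpsa. Symbols of pseudogenes and of the Rps6k kinases, which are not ribosomal proteins, were left out. The rule gave 55 probe sets of 48 genes, out of 14217 genes named by a single symbol, with 33 genes of the large subunit and 15 of the small subunit or their paralogs. Another 36 probe sets carry several symbols, a ribosomal protein symbol among them, and were not members.

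A ribosome joins a small subunit, which reads the message, to a large subunit, which forms the peptide bond and passes the new chain through its exit tunnel. In mammals, messages of ribosomal proteins usually begin with a C and a run of pyrimidines, the terminal oligopyrimidine tract, through which the mTOR kinase and the RNA-binding protein Larp1 adjust their translation. Neurons keep ribosomes in the cell body, in dendrites and in axons. Ribosomal protein genes have many processed copies in mammalian genomes, and a probe set can pick up signal from such copies or from a paralog.

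Male Wistar rats received phenytoin, a blocker of voltage-gated sodium channels, levetiracetam, a ligand of the synaptic vesicle protein Sv2a, or a control solution. The doses were 75 mg per kg of phenytoin and 150 mg per kg of levetiracetam, and all 3 treatments were given 2 times daily by gastric tube for 90 days. Total RNA of brainstem, hippocampus and frontal cortex was hybridised to single-colour arrays. Each of the 9 groups had 7 arrays except the control frontal cortex with 6, whose number 4 is not analysed here. The labels give neither age nor whether the regions of a treatment come from the same rats, and those of levetiracetam brainstem arrays 1 and 2 mention both drugs. These arrays were treated as levetiracetam, and a count without them is given. Values are normalized log2 intensities, and differences are on the log2(value + 16) scale, which understates changes of dim probe sets, with their standard errors (SE). An adjusted p is from limma, with Benjamini-Hochberg adjustment over the 18625 probe sets of a comparison, and a call needs one under 0.05. The labels count 7 in each group without tying each array to one rat, so a p-value measures only the spread among arrays, and their number limits the precision.

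Region markers were checked against the labels in control rats. Of the hindbrain markers, 4 of 4 tested probe sets, among them Chat and Hoxa5, were called higher in brainstem than in each other region. The other probe sets of that list, of Slc6a5 and Slc6a2, were too dim to be tested. Slc6a2 stood at 4.46 in brainstem, 4.72 in hippocampus and 4.68 in frontal cortex, and Slc6a5 at 4.91, 4.17 and 4.44. A marker can pass the brightness filter through the region where it is high, so these marker counts are a description. Of the hippocampus markers, mostly probe sets of Zbtb20, 9 of 9 were higher in hippocampus than in brainstem and 8 of 9 higher than in cortex. Of the cortex markers, frontal cortex exceeded brainstem in 7 of 7 probe sets and hippocampus in 5 of 7, while the other 2, both of Nr4a2, were higher in hippocampus. In bulk tissue, fewer cells of a type and less RNA per cell cannot be told apart. Estimated weights of 4 arrays lay between 0.152 and 0.311, below a limit of 0.35: phenytoin brainstem 1, phenytoin hippocampus 7, control hippocampus 1 and levetiracetam frontal cortex 3. The phenytoin hippocampus array 4 lacks 4799 probe sets, of which 2 are members (Rpl28 and 1 of Rpl3).

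Of the 55 member probe sets, 48 were bright enough to be tested in each region, and 48, of 43 genes, in the fit of all regions. Rpl30, Rps13, Rpl39l1, Rpl3l and 1 of the probe sets of Rpl14 were too dim in every region. For drug effects, Rpl28 was tested in the frontal cortex alone, a second probe set of Rps24 in hippocampus and frontal cortex, Rps27l in brainstem and hippocampus, and Rps4y2 in brainstem alone. Rps29, a zinc-binding protein of the small subunit, gave the brightest signal, with a mean of 13.05 over all arrays. Rpl3l, a muscle paralog of Rpl3, gave the dimmest, with 4.57. These are levels of different probe sets and do not rank the genes by abundance.

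The start sites of 11 genes described here are shown because the pyrimidine tract lies at the start of such messages. Each line gives 15 bases before and 15 bases from the start used in the RefSeq promoter table, 5′ to 3′ on the gene's strand in build GRCr8. That start lies inside the outer end of the RefSeq gene for 5 of the 11 genes, by 62 bases in Rpl13a, 73 in Rpl35a, 564 in Rpl35, 1046 in Rps15a and 4555 in Rpl19, and for 17 of the 41 genes matched in all. Capitals mark the longest run of C and T.
Rpl21 (chr12:13386139-13386168, minus strand): TTCCTTTCCgccggggcagccatcttccag
Rpl13a (chr1:104748899-104748928, minus strand): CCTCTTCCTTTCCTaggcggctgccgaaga
Rpl24 (chr11:58128391-58128420, minus strand): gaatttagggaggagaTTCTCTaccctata
Rpl35a (chr11:81235007-81235036, minus strand): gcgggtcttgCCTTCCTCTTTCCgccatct
Rpl39 (chrX:121195882-121195911, minus strand): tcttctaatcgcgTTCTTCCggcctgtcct
Rpl35 (chr3:43165907-43165936, minus strand): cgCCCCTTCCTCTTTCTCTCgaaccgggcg
Rpl19 (chr10:83519049-83519078, plus strand): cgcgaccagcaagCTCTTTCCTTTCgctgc
Rplp0 (chr12:46718376-46718405, minus strand): gaccgcaccgcaCTTCTCTCgccaggcgtc
Rps15a (chr1:181860270-181860299, minus strand): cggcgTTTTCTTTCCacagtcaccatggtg
Rpl7l1 (chr9:21695703-21695732, plus strand): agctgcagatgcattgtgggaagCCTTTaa
Rps27l (chr8:76443643-76443672, plus strand): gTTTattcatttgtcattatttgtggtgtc
Promoter sequences of 41 of the 48 genes were matched by gene identifier. In this 30-base window 23 of the 41 genes (56.1%) held a run of at least 8 pyrimidines on the sense strand, against 11.4% of all 33469 promoters in the table. A C followed by at least 4 pyrimidines stood exactly at that start in 11 of the 41 (26.8%), against 2.63% of all promoters. Among the lines shown the run was 18 bases in Rpl35, 14 in Rpl13a, 9 in Rpl21, 6 in Rpl24, 5 in Rpl7l1 and 3 in Rps27l. A run is a description of the letters around one annotated start, and the start used in these tissues was not measured.

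In control rats ribosomal protein genes were called in both directions between each pair of regions. Rpl21, a protein of the large subunit, was highest in hippocampus, intermediate in brainstem and lowest in frontal cortex. Its lowest, median and highest values were 11.54, 11.86 and 12.09 in hippocampus, 11.002, 11.26 and 11.46 in brainstem, and 10.37, 10.56 and 11.02 in frontal cortex. Every hippocampus value lay above every value of the other regions, while brainstem and frontal cortex overlapped at their edges. The hippocampus stood 1.23 ± 0.11 (SE) above the frontal cortex, a 2.35-fold difference (adjusted p = 2.84e-15), and 0.62 ± 0.10 above the brainstem (adjusted p = 3.69e-07). Brainstem exceeded frontal cortex by 0.61 ± 0.11 (adjusted p = 1.23e-06). Spike-in control probe sets of the same arrays had the same order, with means of 10.82 in hippocampus, 10.49 in brainstem and 10.04 in frontal cortex. Their relation to the region differences was not tested. The titles of frontal cortex arrays follow another naming pattern than those of the other regions. Whether they were run separately is not given, and a separate run could not be told apart from region.

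Between hippocampus and frontal cortex 14 of 48 member probe sets were higher and 8 lower in hippocampus, where 21.6% and 24.4% of all tested probe sets were. Among large subunit genes, Rpl13a, which also takes part in translational control outside the ribosome, was higher by 0.71 ± 0.11 (adjusted p = 8.57e-08). It ranged from 11.68 to 12.27 in hippocampus and from 10.93 to 11.72 in frontal cortex, with some overlap. Rpl24, which lies at the face between the subunits, was higher by 0.40 ± 0.12 (adjusted p = 0.00459), and Rpl23a, near the mouth of the exit tunnel, by 0.40 ± 0.07 (adjusted p = 6.36e-06). Rpl5, which carries a small ribosomal RNA into the large subunit together with Rpl11, was higher by 0.31 ± 0.06 (adjusted p = 2.64e-05). Rplp0, the base of the stalk that recruits translation factors and the one stalk gene with a member probe set, was higher by 0.29 ± 0.11 (adjusted p = 0.0216). In the small subunit Rps15a was higher by 0.29 ± 0.07 (adjusted p = 0.000239).

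Lower in hippocampus than in frontal cortex were Rpl35 by 0.41 ± 0.07 (adjusted p = 1.35e-06) and Rps15 by 0.32 ± 0.11 (adjusted p = 0.0116). Rpl23, Rpl18 and Rpl26 were lower by 0.31 ± 0.11, 0.28 ± 0.11 and 0.25 ± 0.08. Rps6, the small subunit protein phosphorylated by the S6 kinases, was lower by 0.23 ± 0.07 (adjusted p = 0.00363). The plot of hippocampus against frontal cortex shows that the members spread to both sides of 0, with a median of 0.04 beside -0.04 over all tested probe sets. With the values as deposited, without quantile normalization, the split was 7 higher and 7 lower, and with cyclic loess 14 higher and 3 lower.

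**Figure D1:**
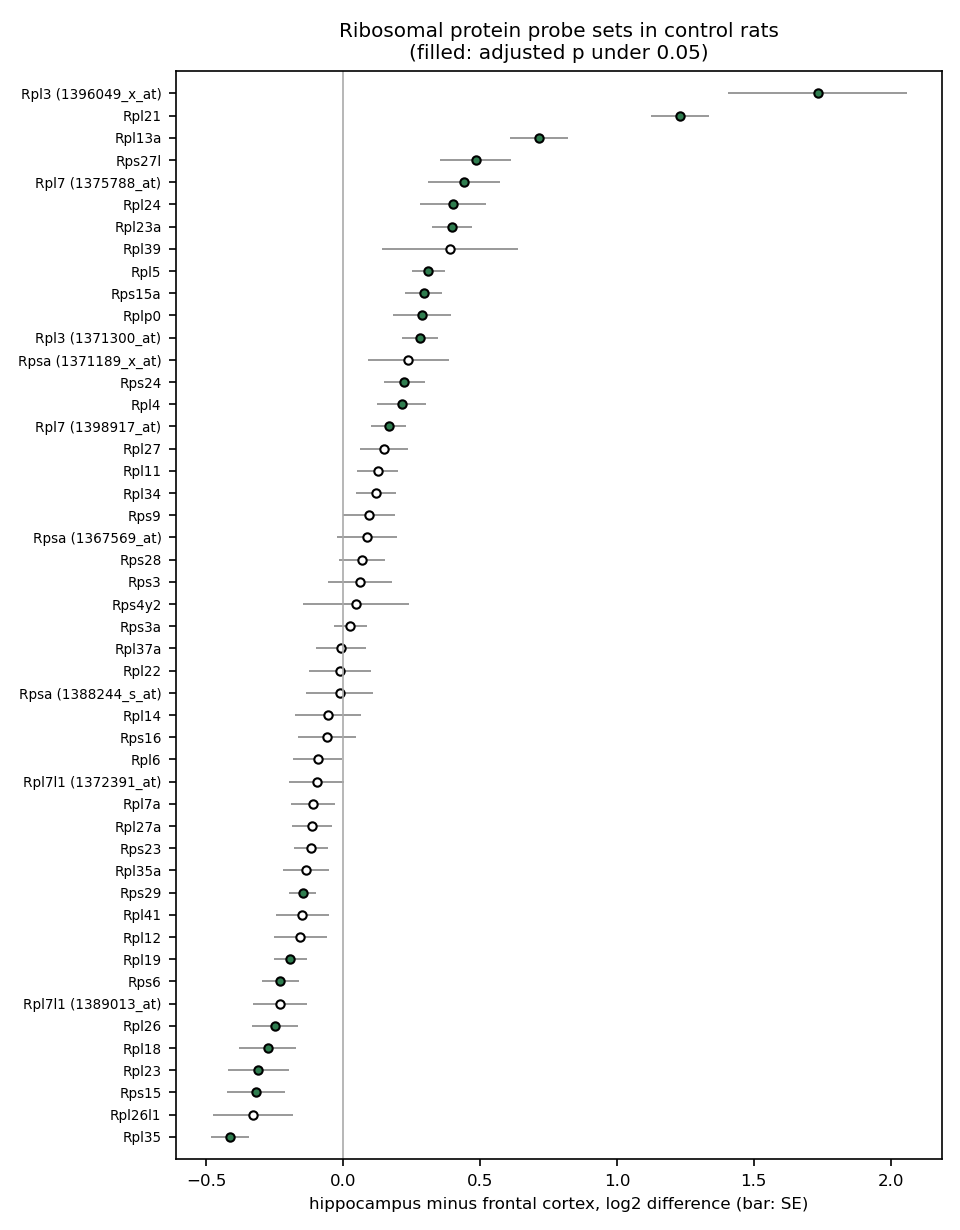
Log2 difference between hippocampus and frontal cortex of control rats (x axis; bars are standard errors) for the 48 tested ribosomal protein probe sets (y axis, sorted). Filled points have an adjusted p under 0.05, 14 of them to the right of 0 and 8 to the left, and Rpl21 stands at 1.23.

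Brainstem against hippocampus gave 2 members higher (Rps4y2 and Rps6) and 10 lower in brainstem, beside 29.5% and 26.9% of all tested probe sets. Rps6 was higher in brainstem by 0.28 ± 0.06 (adjusted p = 0.000185). Its control values ran from 11.86 to 12.11 in brainstem and from 11.51 to 11.97 in hippocampus, so the groups overlapped. Rpl39, a very small protein of the exit tunnel, was lower in brainstem by 0.87 ± 0.24 (adjusted p = 0.00148), with brainstem values from 5.42 to 7.39. Rps15, which lies in the head of the small subunit, was lower by 0.34 ± 0.10 (adjusted p = 0.00379), Rpl35a by 0.28 ± 0.08 (adjusted p = 0.00285) and Rps15a by 0.19 ± 0.06 (adjusted p = 0.00989).

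Brainstem against frontal cortex gave 11 higher and 10 lower, where 29.7% and 29.1% of all tested probe sets were called. Besides Rpl21, Rpl13a was higher in brainstem by 0.49 ± 0.11 (adjusted p = 6.58e-05) and Rpl23a by 0.32 ± 0.07 (adjusted p = 0.000128). Rps15 was lower in brainstem by 0.66 ± 0.11 (adjusted p = 3.08e-07), Rpl35 by 0.48 ± 0.07 (adjusted p = 1.85e-08) and Rpl35a by 0.41 ± 0.08 (adjusted p = 2.75e-05). Rps15 thus stood at 11.16 ± 0.08 (SD, n = 7) in brainstem, 11.50 ± 0.24 (SD, n = 7) in hippocampus and 11.82 ± 0.22 (SD, n = 6) in frontal cortex, with a call between each pair of regions. Rpl41, the shortest ribosomal protein, was lower in brainstem by 0.30 ± 0.10, Rpl27a by 0.28 ± 0.07 and Rpl12 by 0.24 ± 0.10. With the values as deposited the split was 4 higher and 15 lower, with cyclic loess 9 and 7, and the differences of Rpl5, Rpl27 and Rps24, higher in brainstem after normalization, changed sign in the deposited values.

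Oligodendrocyte markers differed between the same regions. All 12 tested probe sets were called higher in brainstem than in hippocampus and in frontal cortex, and their mean level ran from 11.17 to 11.44 in brainstem, 9.89 to 10.26 in hippocampus and 9.31 to 10.002 in frontal cortex of control rats. Their part in the ribosomal protein differences was not tested.

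With levetiracetam in the brainstem 8 of 48 member probe sets rose and 0 fell, where 5.17% of all tested probe sets rose and 4.07% fell. The 7 control arrays of Rpl21 lay at 11.002, 11.26 and 11.46 (lowest, median and highest) and the 7 levetiracetam arrays at 11.62, 11.68 and 11.75. The groups did not overlap, and the treated arrays spread less (SD 0.05) than the control arrays (SD 0.17). Rpl21 rose by 0.46 ± 0.08, or 1.37-fold (adjusted p = 0.0014).

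Rpl24 went from 10.88, 10.97 and 11.12 to 11.24, 11.37 and 11.46, a rise of 0.39 ± 0.07, or 1.31-fold (adjusted p = 0.00236). Rpl13a went from 11.69, 11.81 and 11.98 to 12.10, 12.13 and 12.16, a rise of 0.31 ± 0.07, or 1.24-fold (adjusted p = 0.00415). For both genes every treated array stood above every control array. Of the other large subunit genes, Rpl35a rose by 0.19 ± 0.05 (adjusted p = 0.0145), Rpl27 by 0.15 ± 0.04 (adjusted p = 0.0124) and Rpl23a by 0.14 ± 0.04 (adjusted p = 0.0402); these 3 were named after their values were seen. In the small subunit, 1 of the 3 probe sets of Rpsa, the laminin receptor precursor, rose by 0.37 ± 0.10 (adjusted p = 0.0202), at 8.98 to 9.26 against 8.61 to 8.87 in controls. Rps27l, a p53-induced paralog of Rps27, rose by 0.32 ± 0.10 (adjusted p = 0.0498), at a dim level of 5.82 to 6.23 against 5.54 to 5.92.

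The median over all 48 members was 0.05, beside 0.00 over all tested probe sets, and 28 of the 48 stood above 0. With the values as deposited, without quantile normalization, 43 stood above 0 and the median was 0.12, beside 0.00 over all. Rplp0 differed by -0.06 ± 0.05 and Rps6 by -0.09 ± 0.05, with adjusted p = 0.5259 and adjusted p = 0.237. Without the arrays whose labels mention both drugs, 4 were called (Rpl21, Rpl24, Rpl13a and Rpsa), and with the ratio of 3′ to 5′ actin signal as a covariate 3 were (Rpl21, Rpl24 and Rpl13a), when 637 probe sets in all rose and 436 fell, against 963 and 758 without it. The call of Rps27l was lost in 16 of the 21 fits that each left out 1 array, and that of Rpl23a in 8 of 21.

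Among markers, 2 of 12 tested neuron probe sets (Syn1 and Rbfox3) fell in these arrays, and the mean of the list ran from 9.40 to 9.58 against 9.53 to 9.67 in controls. Of 12 oligodendrocyte probe sets 2 (both of Mobp) rose and 2 (Sox10 and Mag) fell, with means of 11.19 to 11.37 against 11.17 to 11.44. Gfap, an astrocyte marker, and Cux2, a cortex marker, fell. Of 9 hippocampus marker probe sets, from 4 genes and mostly of Zbtb20, 8 stood above 0 and 1, of Zbtb20, rose. Their median was 0.22, with list means of 7.02 to 7.22 against 6.78 to 7.11. The part of all these markers in the rise of the ribosomal protein genes was not tested.

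With phenytoin in the brainstem 0 of 48 members were called in either direction by limma, where 0.0161% of all tested probe sets rose and 0% fell. Small differences lay mostly above 0, in 40 of 48 members, with a median of 0.07 beside -0.01 over all, and in 44 of 48 with a median of 0.15 in the values as deposited. At an unadjusted p under 0.05, 17 members were higher and 0 lower, beside 3.65% and 3.65% of all tested probe sets. The smallest p-values belonged to Rpl35a (0.18 ± 0.05, adjusted p = 0.318), Rpl24 (0.27 ± 0.07, adjusted p = 0.342), Rps15a (0.18 ± 0.05, adjusted p = 0.379) and Rpl26 (0.13 ± 0.04, adjusted p = 0.414). Rps15a ran from 11.87 to 11.99 with phenytoin and from 11.61 to 11.93 in controls, and Rpl24 from 10.93 to 11.64 against 10.88 to 11.12. Without the arrays of low weight 38 members stood above 0, with a median of 0.05. Phenytoin and levetiracetam share the control arrays in each region, so their differences from control are not independent.

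Directly compared in the brainstem, phenytoin and levetiracetam differed in 1 member, where 1.22% of all tested probe sets were higher and 1.76% lower with phenytoin. Rps27l was lower with phenytoin by 0.41 ± 0.10, or 1.33-fold (adjusted p = 0.0343), with phenytoin arrays from 5.39 to 5.85 and levetiracetam arrays from 5.82 to 6.23. Rpl35, near the exit tunnel, was 0.15 ± 0.04 higher with phenytoin (adjusted p = 0.0572). Rpl21 was 0.26 ± 0.08 lower (adjusted p = 0.082) and Rpl37a 0.19 ± 0.07 higher (adjusted p = 0.1). The call of Rps27l was lost without phenytoin array 3 or 7 or levetiracetam array 1, 2, 4 or 7, and without both arrays whose labels mention both drugs, leaving 0 calls. Without phenytoin array 1, 5 or 6 there were 3, 4 and 4 calls, and without control array 1 or 3 there were 2.

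**Figure D2:**
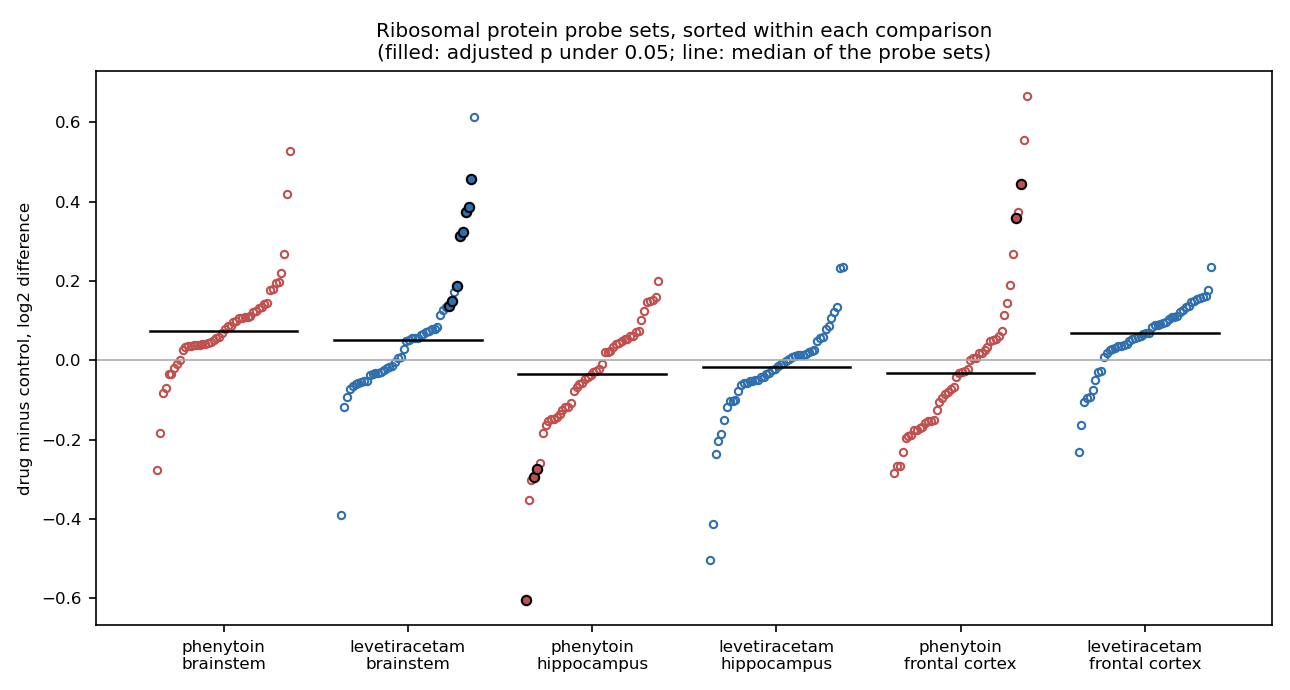
Log2 difference between drug and control (y axis) of the tested ribosomal protein probe sets, sorted within each drug and region (x axis); filled points have an adjusted p under 0.05 and the line is the median of the probe sets. The 8 filled points of levetiracetam in brainstem lie above 0, the 3 of phenytoin in hippocampus below 0 and the 2 of phenytoin in frontal cortex above 0.

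In the hippocampus 3 of 48 members fell with phenytoin and 0 rose, where 4.69% of all tested probe sets fell and 4.55% rose. Rpl39 went from 6.69, 7.07 and 7.85 (lowest, median and highest control) to 5.87, 6.63 and 7.02, a fall of 0.60 ± 0.18, or 1.52-fold (adjusted p = 0.0405). Rpl21 went from 11.54, 11.86 and 12.09 to 11.24, 11.45 and 11.84, a fall of 0.29 ± 0.09, or 1.23-fold (adjusted p = 0.0423). For both genes the groups overlapped. One probe set of Rpl7l1, a paralog of Rpl7, went from 8.30, 8.48 and 8.51 to 8.05, 8.19 and 8.29 with no overlap, a fall of 0.27 ± 0.06, or 1.21-fold (adjusted p = 0.00935). The second probe set of Rpl7l1 differed by -0.04 ± 0.06 (adjusted p = 0.757). Rpl35 was next by p-value, 0.20 ± 0.07 higher (adjusted p = 0.0718).

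The members' median was -0.03, beside 0.00 over all tested probe sets, with 20 of 48 above 0. With the values as deposited 6 of 48 stood above 0 and the median was -0.15, beside -0.01 over all. With the ratio of 3′ to 5′ Gapdh signal as a covariate 0 members were called, and of all tested probe sets 9 were called higher and 8 lower, against 847 and 874 without it. Without phenytoin array 7, 9 members were called. Without phenytoin array 1 or 2 or control array 1, 2 or 3, 1 call was left, and the Rpl7l1 call held in each of the 21 fits that left out an array. The call of Rpl21 was lost in 14 of those 21 fits and that of Rpl39 in 9. The log2 Gapdh ratio was 0.389 ± 0.1003 (SD, n = 7) with phenytoin and 0.241 ± 0.116 (SD, n = 7) in controls (two-sided exact permutation test, p = 0.0233, adjusted over 6 comparisons 0.14). Among markers, 3 of 12 neuron and 2 of 12 oligodendrocyte probe sets rose and 2 of 14 astrocyte probe sets fell, and the oligodendrocyte mean ran from 9.76 to 11.03 against 9.89 to 10.26 in controls. Their part in the fall of these genes was not tested.

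With levetiracetam in the hippocampus 0 of 48 members were called by limma, and 0% of all tested probe sets. At an unadjusted p under 0.05, 1 member was higher and 2 lower, beside 4.74% and 4.28% of all. Rps15a stood 0.24 ± 0.06 higher (adjusted p = 0.259), with treated arrays from 12.09 to 12.23 and control arrays from 11.72 to 12.07. Rpl39 stood 0.50 ± 0.18 lower (adjusted p = 0.394), from 6.05 to 6.93 against 6.69 to 7.85, and Rpl4 0.24 ± 0.09 lower (adjusted p = 0.4). Rps27l differed by 0.23 ± 0.14 (adjusted p = 0.64).

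Between the drugs in the hippocampus 3 members were lower and 0 higher with phenytoin, where 8.76% of all tested probe sets were lower and 8.01% higher. Rpl21 was lower by 0.38 ± 0.09, or 1.30-fold (adjusted p = 0.00625), at 11.24 to 11.84 with phenytoin and 11.84 to 12.10 with levetiracetam. The same probe set of Rpl7l1 was lower by 0.29 ± 0.06 (adjusted p = 0.00293) and Rpl27 by 0.27 ± 0.09 (adjusted p = 0.0355). Rpl13a was 0.27 ± 0.10 lower (adjusted p = 0.054). Without phenytoin array 7, whose weight was low, 9 members were called, and without control array 7, 5 were. The call of Rpl27 was lost in 8 of 21 fits that left out 1 array.

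In the frontal cortex 2 of 48 members rose with phenytoin and 0 fell, where 5.11% of all tested probe sets rose and 1.28% fell. Rpl21 went from 10.37, 10.56 and 11.02 in controls to 10.81, 11.01 and 11.43, a rise of 0.45 ± 0.12, or 1.36-fold (adjusted p = 0.0251). Rps15a went from 11.43, 11.61 and 11.86 to 11.76, 12.01 and 12.19, a rise of 0.36 ± 0.08, or 1.28-fold (adjusted p = 0.00827). For both genes the groups overlapped at their edges. Rpl39 stood 0.56 ± 0.18 higher (adjusted p = 0.0713), with phenytoin arrays from 7.08 to 7.53 and control arrays from 5.85 to 7.19. Rpl13a stood 0.37 ± 0.13 higher (adjusted p = 0.0886).

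The median over the 48 members was -0.03, as over all tested probe sets. With the values as deposited both calls were lost without a change of sign, and another member was called lower. There 0 members were called higher and 1 lower, 10 of 48 stood above 0 and the median was -0.17 beside -0.01 over all. With the actin ratio as a covariate 0 members were called and their median was -0.15 beside -0.01 over all, when 535 probe sets in all rose and 109 fell, against 952 and 239 without it. The call of Rpl21 was lost without phenytoin array 4 or 6 or control array 1, 2 or 3, leaving 1 call, and 4 members were called without levetiracetam array 3. Among markers, 2 of 12 neuron probe sets (Nefl and Map2) rose, with list means of 9.74 to 9.94 against 9.60 to 9.89. Of 14 astrocyte probe sets 1 (Aqp4) rose and 1 (Slc1a2) fell, and of 7 cortex marker probe sets 1 (Cux2) rose. Their part in the ribosomal protein differences was not tested.

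With levetiracetam in the frontal cortex 0 of 48 members were called by limma, and 0% of all tested probe sets. At an unadjusted p under 0.05, 0 members were higher and 0 lower, beside 2.1% and 1.92% of all. The differences lay mostly above 0, in 39 of 48 members, with a median of 0.07 beside 0.00 over all, but without the arrays of low weight in 27 of 48, with a median of 0.01. The smallest p-values were those of Rpl6 (0.24 ± 0.13), Rpl37a (0.14 ± 0.08), the brighter probe set of Rpl3 (0.16 ± 0.10) and the dim probe set of Rps24 (-0.23 ± 0.15), each with an adjusted p of 0.954. Levetiracetam arrays of Rpl6 ran from 11.63 to 12.31 and control arrays from 11.27 to 11.96.

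Between the drugs in the frontal cortex 2 members were higher and 2 lower with phenytoin, where 7.09% and 3.71% of all tested probe sets were. Rpl21 was higher by 0.52 ± 0.12, or 1.43-fold (adjusted p = 0.00421), at 10.81 to 11.43 against 10.37 to 10.90 with levetiracetam. Rps15a was higher by 0.35 ± 0.08, or 1.28-fold (adjusted p = 0.00499), at 11.76 to 12.19 against 11.53 to 11.80. Rpl19, a large subunit protein that reaches across to the small subunit, was lower by 0.28 ± 0.08 (adjusted p = 0.0288), at 11.93 to 12.27 against 12.23 to 12.73. The dim probe set of Rpl7 was lower by 0.42 ± 0.13 (adjusted p = 0.0321), while the bright one differed by -0.11 ± 0.08 (adjusted p = 0.422). Without levetiracetam array 5, phenytoin array 5 or phenytoin array 6, 2 members were called.

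Whether the effect of phenytoin differed between the regions was tested in 1 fit of all 9 groups. Of 48 members 7 were called, beside 12.2% of all tested probe sets. Rpl21 had the smallest p (adjusted p = 0.000595). Its effect was 0.49 lower in hippocampus and 0.25 higher in frontal cortex than in brainstem. In the plot of single arrays Rpl21 goes down with phenytoin in the hippocampus, where controls are highest, and up in the frontal cortex, where they are lowest. The phenytoin medians (11.36, 11.45 and 11.01 in brainstem, hippocampus and frontal cortex) lay closer together than the control medians (11.26, 11.86 and 10.56). The same control arrays set both the order of the regions and the differences from control. A fall where controls are high and a rise where they are low is therefore partly built in, and this is a description.

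The effects of Rpl13a, Rpl24 and Rpl23a were also lower in hippocampus than in brainstem, by 0.36, 0.53 and 0.29 (adjusted p = 0.02273, 0.02425 and 0.0282). Rpl39 had an effect 1.02 lower in hippocampus than in brainstem (adjusted p = 0.02285). Rpl19 and Rpl35 had effects 0.23 and 0.20 lower in frontal cortex than in brainstem (adjusted p = 0.03998 and 0.04295). Rpl23a, Rpl19 and Rpl35 are named here after their values were seen. With the Gapdh ratio as a covariate 2 members were called (Rpl21 and Rpl23a), and without phenytoin hippocampus array 3, 4 were. Rpl21 kept its call in each of the 62 fits that left out 1 array.

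For levetiracetam 0 of 48 members were called by the same limma F test, beside 0.0644% of all tested probe sets. Rpl21 had the smallest p, with an adjusted p of 0.226, followed by Rpl39 (0.311), the dimmest probe set of Rpsa (0.395) and Rpl4 (0.399). The brainstem rise of Rpl21 with levetiracetam is therefore not shown to differ from its differences of 0.09 ± 0.09 in hippocampus and -0.07 ± 0.12 in frontal cortex.

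**Figure D3:**
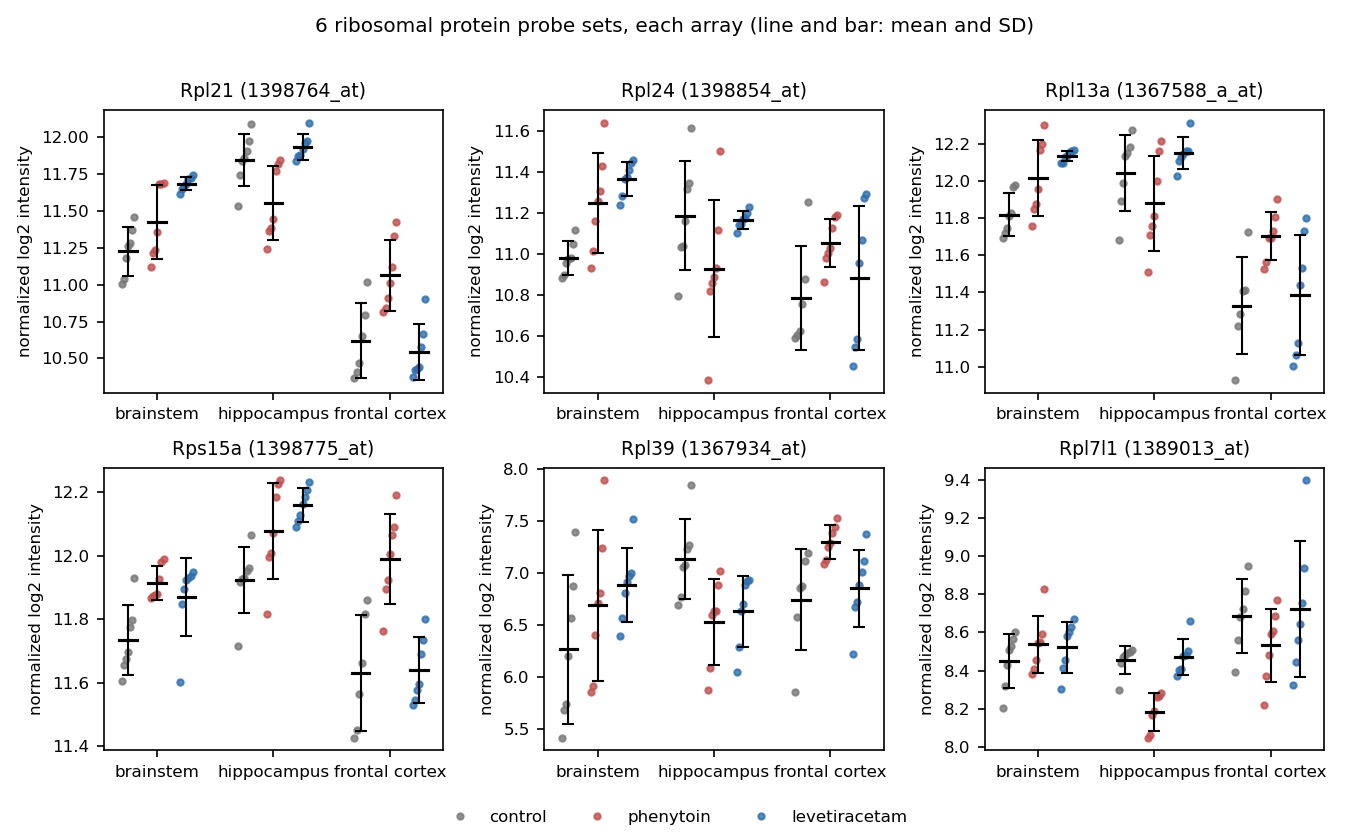
Normalized log2 intensity (y axis) of 6 ribosomal protein probe sets on each array, sorted by value within each treatment and region (x axis); lines and bars are the mean and SD of 7 arrays, or 6 in the control frontal cortex. Levetiracetam brainstem arrays of Rpl21 lie between 11.62 and 11.75, above all controls of that region, and phenytoin hippocampus arrays of Rpl7l1 between 8.05 and 8.29, below all controls.

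Of the genes with several probe sets, some gave different results for each. For Rpsa, the brighter probe sets differed by 0.00 ± 0.06 and -0.03 ± 0.06 with levetiracetam in the brainstem, where the dimmest rose. The dim probe set of Rpl3, of a type that can hybridise to related sequences, was lower in frontal cortex than in hippocampus by 1.73 ± 0.33 in controls (adjusted p = 1.22e-05), and the bright one by 0.28 ± 0.07 (adjusted p = 0.000297). The dim and bright probe sets of Rpl7 were both higher in control hippocampus than in brainstem, by 0.36 ± 0.13 and 0.17 ± 0.06. A second probe set of Rpl14 had a mean of 4.75 over all arrays against 10.62 for the bright one, and one of Rps24 5.44 against 12.08.

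Among paralogs of ribosomal proteins, Rps4y2 lies on chromosome 4 in GRCr8 despite its symbol. Its control arrays ran from 6.11 to 6.74 in brainstem, 4.87 to 5.44 in hippocampus and 4.39 to 5.68 in frontal cortex. Since it was bright enough in brainstem alone, this is a description, although its calls are among the counts between regions. With phenytoin and levetiracetam it stood 0.28 ± 0.15 and 0.39 ± 0.15 lower in brainstem (adjusted p = 0.739 and 0.105). Rps27l was too dim in frontal cortex, so its levels by region are likewise a description, with control arrays from 5.54 to 5.92 in brainstem, 5.01 to 6.16 in hippocampus and 4.81 to 5.58 in frontal cortex. Rpl26l1, a near copy of Rpl26, had a mean of 6.05 over all arrays and was called in none of the 14 comparisons. Rpl39l1 and Rpl3l had means of 5.01 and 4.57 and were not tested.

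The members varied together from array to array within a group. After each group mean was taken away, the median correlation over the 1128 pairs of 48 member probe sets was 0.54 across 62 arrays, and 96.6% of pairs were above 0. The points share the array, its RNA and its normalization. The members' median within-group SD was 0.18, beside 0.22 over all tested probe sets. Most like Rpl21 by this measure were Rpl13a (r = 0.78), Rpl24 (r = 0.70) and Rpl23a (r = 0.67), and Rps6 was least like it (r = -0.20).

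The 3′ to 5′ ratio of the actin control probe sets, on the log2 scale, is higher where the 5′ end of messages is less well represented. In brainstem it was 1.55 ± 0.16 (SD, n = 7) with phenytoin and 1.38 ± 0.06 (SD, n = 7) in controls (two-sided exact permutation test, p = 0.0122, adjusted over 6 comparisons 0.04545). Frontal cortex arrays had 1.57 ± 0.14 (SD, n = 7) with phenytoin against 1.32 ± 0.15 (SD, n = 6) (exact permutation p = 0.0152, adjusted 0.04545). Levetiracetam brainstem arrays had 1.49 ± 0.11 (SD, n = 7) (exact permutation p = 0.0268, adjusted 0.0536). Within groups its correlation with the members reached 0.608 across 62 arrays, for the dimmest probe set of Rpsa, and was 0.445 for Rpl24, 0.342 for Rpl13a and 0.191 for Rpl21. Spike-in control probe sets had a mean of 10.78 with levetiracetam in brainstem against 10.49 in controls (exact permutation p = 0.0251, adjusted 0.0752). With phenytoin they had 10.56 against 10.82 in hippocampus (exact permutation p = 0.0175, adjusted 0.0752). In frontal cortex they had 9.92 with phenytoin against 10.04 (exact permutation p = 0.187, adjusted 0.374). Their relation to the ribosomal protein differences was not tested.

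**Figure D4:**
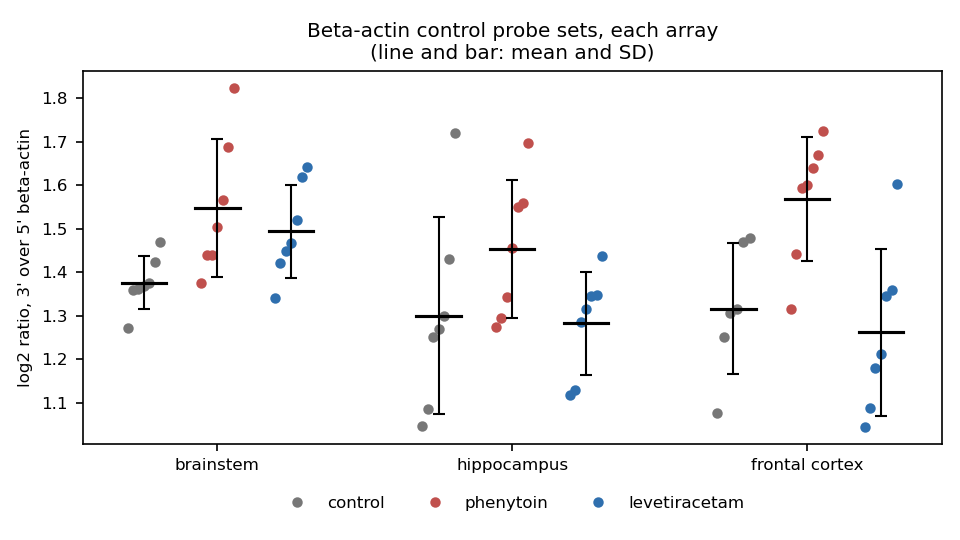
Log2 ratio of 3′ over 5′ actin signal (y axis) on each array, sorted by value within each treatment and region (x axis); lines and bars are the mean and SD. Phenytoin arrays of brainstem and frontal cortex have means of 1.55 and 1.57, against 1.38 and 1.32 in controls.

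Genes around the ribosome were counted from lists. Some lists share genes, such as Eef1a1 and Eef2, so a probe set can be counted in several of them. With levetiracetam in brainstem, 2 of 52 probe sets of translation factors rose and 5 fell, beside the 5.17% and 4.07% of all tested probe sets. Eef1a1, which brings aminoacyl transfer RNA to the ribosome, rose by 0.16 ± 0.04 (adjusted p = 0.023) and Eef2, which moves the ribosome along the message, fell by 0.22 ± 0.06 (adjusted p = 0.0273). Of 70 probe sets of ribosome assembly and RNA polymerase I genes 5 rose and 1 fell, among them the nucleolar proteins Fbl, up by 0.35 ± 0.08 (adjusted p = 0.00459), and Ncl, up by 0.30 ± 0.08 (adjusted p = 0.018). Of 22 probe sets of other messages with a terminal oligopyrimidine tract 2 rose and 2 fell, and of 44 of the mTOR pathway 1 rose and 2 fell, one of them Larp1, by 0.20 ± 0.06 (adjusted p = 0.0284). Of 91 mitochondrial ribosomal protein probe sets, whose ribosomes serve the mitochondrial genome, 9 rose and 0 fell, with a median of 0.05.

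With phenytoin in hippocampus, 14 of 93 mitochondrial ribosomal protein probe sets fell and 0 rose, where 4.69% and 4.55% of all did, with a median of -0.12 beside -0.03 for the cytosolic members. Of the other oligopyrimidine messages 8 of 22 fell and 1 rose, and of the translation factors 7 of 53 fell and 1 rose. Of the assembly genes 4 of 70 fell and 1 rose. These lists share genes, so their counts are not separate. With the Gapdh ratio as a covariate 9 probe sets in all were called higher and 8 lower in this comparison. In frontal cortex 2 of 53 translation factor probe sets rose with phenytoin and 1 fell, and 1 of 92 mitochondrial ribosomal protein probe sets rose and 2 fell, beside 5.11% and 1.28% of all. In control rats 29 of 92 mitochondrial probe sets were higher and 5 lower in brainstem than in hippocampus, beside 2 and 10 of 48 cytosolic ones and 29.5% and 26.9% of all. The difference between the lists was not tested. Genes of these lists were named after their values were seen.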

How the data were processed

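Each of the 62 arrays had 1 file of linear intensities, which the authors deposited already scaled: the 2% trimmed mean of each complete array was 150.043 to 150.06. The software behind them is not given in the sources used here. Here, log2(intensity + 16) was quantile normalized on the 26300 probe sets present on all arrays. The 57 control probe sets and the dimmest 40% were left out, which left 18625 per fit. Groups came from the labels. Drugs were compared within each region and regions within control rats, with limma 3.58.1 in R 4.3.3 (lmFit and eBayes with a trend, two-sided, Benjamini-Hochberg, threshold 0.05). Region comparisons and the F tests of drug effects across regions used 1 fit of all 9 groups. The script was tested on simulated data.

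Named were the 5 largest calls each way per drug comparison (with fewer than 4 calls, the 4 smallest p), 6 each way per region comparison, 4 per F test, and by choice the brightest and dimmest members, stalk genes, Rps6, paralogs and genes with probe sets that disagree. Members and lists were chosen with earlier results of these data known. Alternatives changed scaling, pseudocount, filter, weights, covariates, blocking and the arrays included. Leaving out the arrays of low weight, and each array in turn in the F tests, was chosen after seeing the data. Array numbers shared by regions do not establish pairing.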

Additional observations from a re-analysis of the deposited data

Results flagged for a closer look

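In groups of 6 or 7 arrays, 12 values of named members lay apart from the rest of their group by Dixon's gap test, among 111 groups tested, and chance flags about 1 in 20. On control hippocampus array 7 these were Rps15a at 11.72 (others 11.92 to 12.07), Rps3a at 11.86 (others 12.08 to 12.20), Rpl27a at 12.03 (others 12.22 to 12.31) and Rps29 at 12.88 (others 13.01 to 13.06), all low. On control frontal cortex array 3 they were Rpl35 at 11.78 (others 12.03 to 12.15), Rps23 at 12.44 (others 12.70 to 12.81) and Rpl26 at 12.48 (others 12.81 to 12.95), all low. On control hippocampus array 1, an array of low weight, Rpl7l1 was low at 8.30 (others 8.44 to 8.51) and Rpl23 high at 12.34 (others 11.27 to 11.62). Rpl41 was low on control brainstem array 3, at 10.79 (others 11.29 to 11.63), the dim probe set of Rpl3 on control brainstem array 6, at 6.43 (others 7.73 to 8.42), and the dim probe set of Rpl7 on phenytoin frontal cortex array 7, at 6.05 (others 6.39 to 6.60).

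By limma's F test the phenytoin effect differed between the 3 regions for 12.2% of all tested probe sets. It did so for 7 of 48 members, or 14.6%. Their adjusted p-values were 0.0005947 for Rpl21, 0.02273 for Rpl13a, 0.02285 for Rpl39, 0.02425 for Rpl24, 0.0282 for Rpl23a, 0.03998 for Rpl19 and 0.04295 for Rpl35.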

How the results depend on the processing

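Counts of members called are given with the reported count in brackets. Levetiracetam against control in brainstem (8) gave 13 with values as deposited, 5 with cyclic loess and 3 with the actin covariate. It gave 2 in 1 fit of all groups and 4 without arrays 1 and 2. Of all tested probe sets, 963 rose and 758 fell as reported. These counts were 957 and 805 as deposited, 896 and 827 with cyclic loess, and 637 and 436 with the actin covariate. They were 501 and 357 in 1 fit, and 630 and 475 without arrays 1 and 2. Phenytoin against levetiracetam in brainstem (1) gave 0 with no filter, in 1 fit of all groups and without arrays 1 and 2. It gave 2 with the Gapdh covariate and with 1 probe set per gene, 3 without the arrays of low weight and 4 with array weights. There, 227 of all tested probe sets were higher and 328 lower as reported. These counts were 56 and 100 in 1 fit, and 610 and 735 with array weights. Phenytoin against control in hippocampus (3) gave 0 with the Gapdh covariate and in 1 fit, 1 with no filter, 6 without the arrays of low weight, and 8 with array weights and with the actin covariate. Of all tested probe sets, 847 were called higher and 874 lower in this comparison as reported. These counts were 9 and 8 with the Gapdh covariate, 554 and 694 in 1 fit, 1336 and 1327 with array weights, and 845 and 725 with the actin covariate. Phenytoin against levetiracetam in hippocampus (3) gave 5 with the dimmest 60% left out and 6 with the actin covariate. It gave 10 with array weights and 11 without the arrays of low weight. Here 1492 of all tested probe sets were higher and 1631 lower as reported, and 1375 and 1533 with the dimmest 60% left out. With the actin covariate these counts were 1162 and 1159, with array weights 2279 and 2295, and without the arrays of low weight 2037 and 1996. Phenytoin against control in frontal cortex (2) gave 0 with the actin covariate and 1 with values as deposited (a fall of another member, where the reported calls rose). It gave 1 with the replicate block (a rise), 4 in 1 fit and without the arrays of low weight, and 6 with array weights. For all tested probe sets, 952 rose and 239 fell as reported. These counts were 535 and 109 with the actin covariate, 921 and 225 as deposited, and 666 and 111 with the replicate block. They were 1480 and 591 in 1 fit, 1200 and 464 without the arrays of low weight, and 1823 and 1136 with array weights. Phenytoin against levetiracetam in frontal cortex (4) gave 2 with no filter and with the replicate block, 7 with array weights and 13 in 1 fit. In this case 1320 of all tested probe sets were higher and 691 lower as reported. These counts were 1237 and 583 with no filter, and 1110 and 494 with the replicate block. They were 1657 and 1087 with array weights, and 1935 and 1301 in 1 fit. Hippocampus against frontal cortex (22) gave 14 with values as deposited, where 4922 of all tested probe sets were higher and 3940 lower, against 4032 and 4547 as reported. The phenytoin effect across regions (7) gave 2 with the Gapdh covariate, 4 with no filter and 13 with array weights. Array numbers were not shown to pair samples: of 61 pairs of regions within a treatment 36 had a correlation above 0.1 (-0.124 to 0.327). Of 61 pairs of treatments within a region 9 did (-0.492 to 0.537), and the medians were 0.11 and -0.01. For drug comparisons the replicate block was the array number within a region, shared by the treatments. For region comparisons and F tests it was the treatment and number, shared by the regions. The replicate block left the other 12 counts within 1.5 times. Leaving out 1 array at a time, the counts ran from 6 to 10, 0 to 4, 1 to 9, 2 to 9, 1 to 4, 2 to 6, 20 to 23 and 4 to 7 in the same order, from 9 to 17 for brainstem against hippocampus and from 16 to 22 for brainstem against frontal cortex. Phenytoin in brainstem, levetiracetam in hippocampus and frontal cortex and the levetiracetam effect across regions gave 0 in every setting run. Of named results under alternatives, 4 changed sign: brainstem against frontal cortex with values as deposited for Rpl27 (-0.010), Rps24 (-0.022) and Rpl5 (-0.042), and hippocampus against frontal cortex with cyclic loess for Rps29 (0.021). The cause of these changes was not tested. Dim members such as Rps27l and Rps4y2 lie near the background of the arrays, which limits their values.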

Other observations

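Of the 36 probe sets that carry several symbols, at least 1 of them of a ribosomal protein, 35 were tested in each region. Their signal cannot be assigned to a single gene. With levetiracetam in brainstem 9 of the 35 rose and 1 fell, beside 5.17% and 4.07% of all tested probe sets. With phenytoin in brainstem 2 rose and 0 fell, out of 3 probe sets that rose among all those tested. With phenytoin in hippocampus 1 rose and 4 fell, beside 4.55% and 4.69% of all. In frontal cortex 0 rose and 0 fell with phenytoin, beside 5.11% and 1.28% of all. In control rats 1 was higher and 18 lower in brainstem than in hippocampus, beside 29.5% and 26.9% of all. Against frontal cortex 3 were higher and 14 lower in brainstem, beside 29.7% and 29.1%. Hippocampus against frontal cortex gave 8 higher and 7 lower, beside 21.6% and 24.4%.

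With levetiracetam in the frontal cortex, 88 of 92 tested mitochondrial ribosomal protein probe sets stood above control, with a median of 0.13 on the log2 scale and 0 called by limma. Of all tested probe sets 50.5% stood above control, with a median of 0.002. The cytosolic members above 0 in this comparison went from 39 of 48 to 27 of 48 without the arrays of low weight. A count of the mitochondrial list without those arrays is not given here.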
